A study of Homo sapiens with 208 samples.

Results

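The 8 genes described here encode the survival proteins of the BCL2 family, BCL2, BCL2L1, BCL2L2, MCL1 and BCL2A1, the related gene BCL2L12, and the pore-forming effectors BAX and BAK1. They were found through the RefSeq accession that the array files give for each probe, and all 8 had a probe. Together they had 13 of the 41000 probes on the array, of which 12 passed the filter on dim signals. PC9 is a gefitinib-sensitive lung adenocarcinoma line whose EGFR carries a kinase-domain deletion, and PC9GRM2 is a resistant line that was selected from PC9 by long exposure to gefitinib and isolated as 1 clone, without MET amplification. Starved cells of each line were followed over 26 time points from 0 to 24 h under 4 treatments. The untreated cells received neither agent, gefitinib was used at 0.5 μM, EGF at 100 ng/ml, and the last group received both at the same concentrations. Gefitinib inhibits the kinase of the EGF receptor and was already present at 0 h, whereas EGF, the ligand of that receptor, was added at 0 h. Every time point was 1 one-colour array, which gave 8 courses of 26 arrays each and no replicate arrays.

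The survival proteins sit on the outer mitochondrial membrane, where they hold BAX, BAK1 and the BH3-only proteins in check. When this restraint fails, BAX and BAK1 form pores, cytochrome c leaves the mitochondrion and caspases are activated. Lung adenocarcinoma cells that depend on mutant EGFR are known to die through this mitochondrial route when the receptor is inhibited.

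All values are log2 signals after quantile normalization, so that 1 unit is a doubling, and all differences are on that scale. Signals of different probes are not on a common scale, so levels are compared only within a probe. Time points stood in for replicates, n is their number, and the p-values therefore measure the spread between time points of single cultures. A gene was called with limma at a Benjamini-Hochberg adjusted p below 0.05 over the 13263 tested genes. An array had 24464 to 35938 features well above background. All 5 epithelial markers (EPCAM, CDH1, KRT8, KRT18 and KRT19) were above background on every array, NAPSA on all arrays but 1 and NKX2-1 on 168. Of the blood, endothelial and fibroblast markers, PTPRC, COL1A2 and LUM were above background on 1, 9 and 2 arrays, DCN on 31 and CDH5 on 34, while CD3E, CD79A, CD14 and PECAM1 gave signal on at least 194. With gefitinib 1 of these 4 was called in PC9 (PECAM1, -0.17) and 2 in PC9GRM2 (CD14 at 0.63 and PECAM1 at 0.59), and their part in the results was not tested. Fewer cells of a kind and less RNA per cell cannot be told apart in such samples. A slide carried all treatments of a line at a single time point. No slide and no scan day was common to PC9 and PC9GRM2, so differences between the lines cannot be told apart from differences between scans. PC9 arrays had 183 to 1616 saturated features each, and PC9GRM2 arrays had 0. What this adds to the differences between the lines was not tested.

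A few libraries stood apart. The array labelled PC9GRM2 with EGF at 0.5 h had a DUSP6 signal of 7.75, against 12.0 to 13.9 at the other time points of that course, and the array labelled with both agents at 0.5 h had 12.5, against 7.51 and 7.85 at 0 and 1 h. DUSP6 is a target of the ERK kinases downstream of EGFR, so both libraries went against their labels. The untreated PC9GRM2 array at 11 h deviated from its neighbours in time with an SD over genes of 1.03, and the 3 treated PC9 arrays at 16 h with SDs of 0.68 to 0.86, where the median of all arrays was 0.40. Untreated PC9 at 18 h (0.80), PC9 with gefitinib at 14 h (0.77) and untreated PC9GRM2 at 12 h (0.75) also lay in this range. Results that changed without one of these time points are given with and without it.

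The promoters of 4 members are shown because they stand for the main patterns below. BCL2 differed between the lines under every treatment, BCL2L1 and BAK1 were lower with gefitinib in both lines, and BAX was lower on 1 of its 2 probes. Each line holds the 250 bases before the RefSeq transcription start (build GRCh38.p14), written 5′ to 3′ on the gene's strand. Capitals mark the words found on either strand, GGGCGG (a GC box) and CCAAT, among 6 words that were searched.
BCL2, chr18:63319770-63320019, minus strand: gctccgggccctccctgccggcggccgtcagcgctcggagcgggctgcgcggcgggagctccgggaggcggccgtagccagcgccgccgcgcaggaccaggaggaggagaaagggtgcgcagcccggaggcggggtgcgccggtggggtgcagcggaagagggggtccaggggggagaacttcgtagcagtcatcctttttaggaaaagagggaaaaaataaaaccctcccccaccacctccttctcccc
BCL2L1, chr20:31723964-31724213, minus strand: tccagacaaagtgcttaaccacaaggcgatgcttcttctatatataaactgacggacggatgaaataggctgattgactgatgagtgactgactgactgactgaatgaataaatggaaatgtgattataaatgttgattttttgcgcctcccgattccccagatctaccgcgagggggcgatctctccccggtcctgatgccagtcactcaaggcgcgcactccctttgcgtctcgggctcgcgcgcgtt
BAX, chr19:48954625-48954874, plus strand: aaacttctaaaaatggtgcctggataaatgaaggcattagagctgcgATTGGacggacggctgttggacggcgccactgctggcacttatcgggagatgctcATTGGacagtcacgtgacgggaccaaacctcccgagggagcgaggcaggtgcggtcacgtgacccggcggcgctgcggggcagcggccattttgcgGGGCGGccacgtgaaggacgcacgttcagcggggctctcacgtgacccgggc
BAK1, chr6:33580277-33580526, minus strand: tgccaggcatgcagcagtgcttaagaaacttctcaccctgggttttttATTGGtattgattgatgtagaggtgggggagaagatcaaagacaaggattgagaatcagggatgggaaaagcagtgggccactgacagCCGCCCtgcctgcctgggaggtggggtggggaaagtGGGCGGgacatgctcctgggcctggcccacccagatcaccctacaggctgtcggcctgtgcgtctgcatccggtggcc

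Among 35116 promoter windows of 300 bases, which run 50 bases past the start, GGGCGG was present in 45% and CCAAT in 34.6%. The other words were the ETS word CCGGAAG (10.3% of windows), the AP-1 word TGACTCA (4.95%), the CRE word TGACGTCA (1.85%) and the E2F word TTTCCCGC (1.63%). The BAX run had GGGCGG 52 bases before the start and CCAAT at 203 and 148 bases before it, and the BAK1 run had GGGCGG at 114 and 78 bases and CCAAT at 202 bases. The BCL2 run held none of the words. BCL2L1 had the ETS word at bases 10 to 16 after this start, outside the run shown, and GGGCGG 5 bases before a further start. The windows of 6 of the 8 members were found.

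BCL2, the founding survival gene of the family, was higher in PC9GRM2 than in PC9 at every one of the 26 time points under every treatment. In untreated PC9 cells its signal was lowest at 4.59 (21 h), had a median of 5.596 and was highest at 7.08 (6 h). In untreated PC9GRM2 cells the lowest value was 6.53 (23 h), the median 7.53 and the highest 9.33 (11 h, the array that stood apart). The courses of the lines overlapped only in that the PC9 peak exceeded the lowest PC9GRM2 values. The mean difference at matched time points was 1.73 without treatment (3.32-fold, standard error 0.11, adjusted p = 2.1e-14), 2.28 with gefitinib, 1.51 with EGF and 2.03 with both. The BCL2 probe was well above background on all PC9GRM2 arrays and on 23, 19, 25 and 22 of 26 PC9 arrays without treatment, with gefitinib, with EGF and with both, so that the lower values of PC9 were read near background. With normexp background correction the untreated difference was 0.55 and remained called. In the order of the 8 courses, the 4 PC9GRM2 courses stood above the 4 of PC9, and the step from the lowest of PC9GRM2 to PC9 with EGF was 0.97 against a larger SD of 0.72. The other step beyond the spread lay between untreated PC9 and PC9 with both agents, at 0.87 against 0.75.

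**Figure D1:**
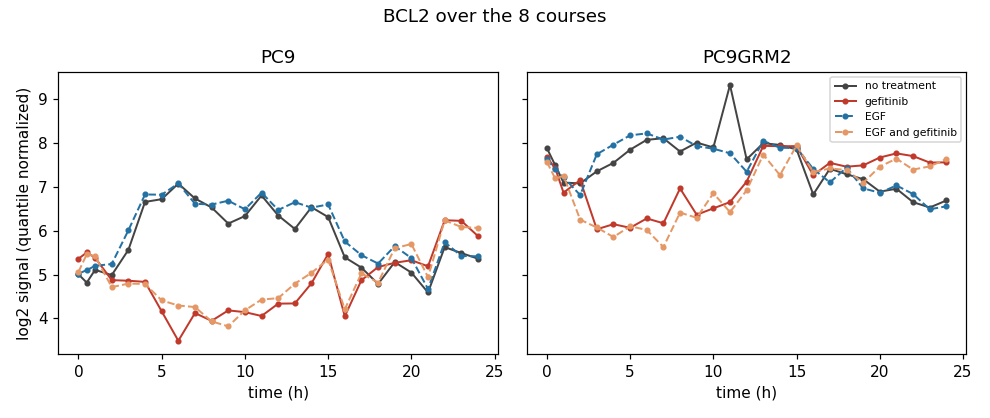
BCL2 signal (log2, quantile normalized) at each of the 26 time points (h) in PC9 (left) and PC9GRM2 (right), 1 array per point, with a line for each of the 4 treatments. In PC9 the courses without gefitinib rose to 7.08 at 6 h while those with gefitinib fell to 3.49 and 3.82, and after 16 h the courses of each line met or crossed.

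Time shaped BCL2 more than any single mean shows. The untreated course changed over the 24 h in both lines (limma's spline F-test, adjusted p = 2.2e-06 in PC9 and 6.99e-05 in PC9GRM2), with fitted ranges of 2.07 and 1.59 that peaked at 8 and 11 h. In PC9 the untreated signal went from 5.01 at 0 h to 7.08 at 6 h, 6.31 at 15 h and 4.59 at 21 h. With gefitinib this rise did not appear, and the signal went from 5.36 at 0 h to 3.49 at 6 h, 4.06 at 11 h and 6.24 at 22 h. In PC9GRM2 the gefitinib course went from 7.68 at 0 h to 6.04 at 3 h and then up to 7.94 at 13 h. The difference between gefitinib and no treatment in PC9 was thus -1.12 on average over 0 to 7 h, -1.98 over 8 to 15 h and 0.16 over 16 to 24 h. In PC9GRM2 the corresponding means were -0.96, -0.88 and 0.62, and all 9 late time points were higher with gefitinib. Over 0 to 7 h BCL2 with gefitinib was thus on average below the untreated level in each line, although at 0 h in PC9 it was above it. Over 16 to 24 h it was on average above the untreated level in both lines, by 0.16 in PC9 and 0.62 in PC9GRM2. The change of the difference over time was called in both lines (adjusted p = 2.53e-10 and 1.87e-07). Over all 26 time points BCL2 fell with gefitinib in PC9, where the signal fell by 0.94 (lower at 17 of 26, standard error 0.25, adjusted p = 0.00126). With normexp correction the PC9 difference was -0.16 and was called, and over the last 13 time points it was -0.37 and was not (adjusted p = 0.214), nor was it with time points 3 h apart (-0.81, adjusted p = 0.118). In PC9GRM2 the mean was -0.39 (standard error 0.19, lower at 15 of 26, adjusted p = 0.0714) and was not called. Over 23 alternatives this PC9GRM2 value ranged from -1.17 to 0.39, and 3 of them called it. The gefitinib difference itself was 0.55 higher in PC9GRM2 than in PC9 (standard error 0.15, adjusted p = 0.00485, higher at 21 of 26), where limma called 34.3% of all genes. Normexp correction brought this to -0.00068. The call was lost when scan days were fitted as a random block, with time points 3 h apart and over the first 13 time points.

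BCL2L1 encodes BCL-XL, a survival protein that binds BAX, BAK1 and BH3-only proteins. It was the member that fell most with gefitinib, and it fell in both lines. The probe that represents the gene had values of 5.72, 7.05 and 8.27 (lowest, median and highest) in untreated PC9 and of 2.74, 5.35 and 6.54 with gefitinib. In PC9GRM2 the untreated values were 5.87, 6.55 and 6.92 and those with gefitinib 3.64, 5.30 and 6.97. The untreated signal was above the gefitinib signal at all 26 time points in PC9 and at 25 in PC9GRM2, although the ranges of the courses overlapped. The difference was -1.64 in PC9 (3.12-fold lower, standard error 0.18, adjusted p = 2e-09), where 37% of all genes were lower and called, and -1.16 in PC9GRM2 (2.24-fold lower, standard error 0.14, adjusted p = 1.1e-08), where 34.1% were. A further probe, spotted 10 times per array, gave -1.35 and -1.14 and was lower at 26 of 26 time points in both lines. The 2 probes were named by different transcripts of BCL2L1, and which transcripts each of them reads was not tested. Over all arrays they correlated with r = 0.87. The lines differed in the gefitinib difference by 0.48 (95% confidence interval 0.07 to 0.89, adjusted p = 0.0639), which was not called, and by 0.21 (-0.03 to 0.44) for the repeated probe. No change of the difference over time was called (adjusted p = 0.66 in PC9 and 0.503 in PC9GRM2). It was already present at 0 h, when gefitinib-treated PC9 had 10.10 on the repeated probe against 10.78 without treatment. Without treatment BCL2L1 was 0.59 lower in PC9GRM2 (difference -0.59, adjusted p = 0.000942), and with gefitinib the difference was -0.11 and was not called. The repeated probe was lower in PC9GRM2 under all 4 treatments, by -0.65 to -0.90.

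**Figure D2:**
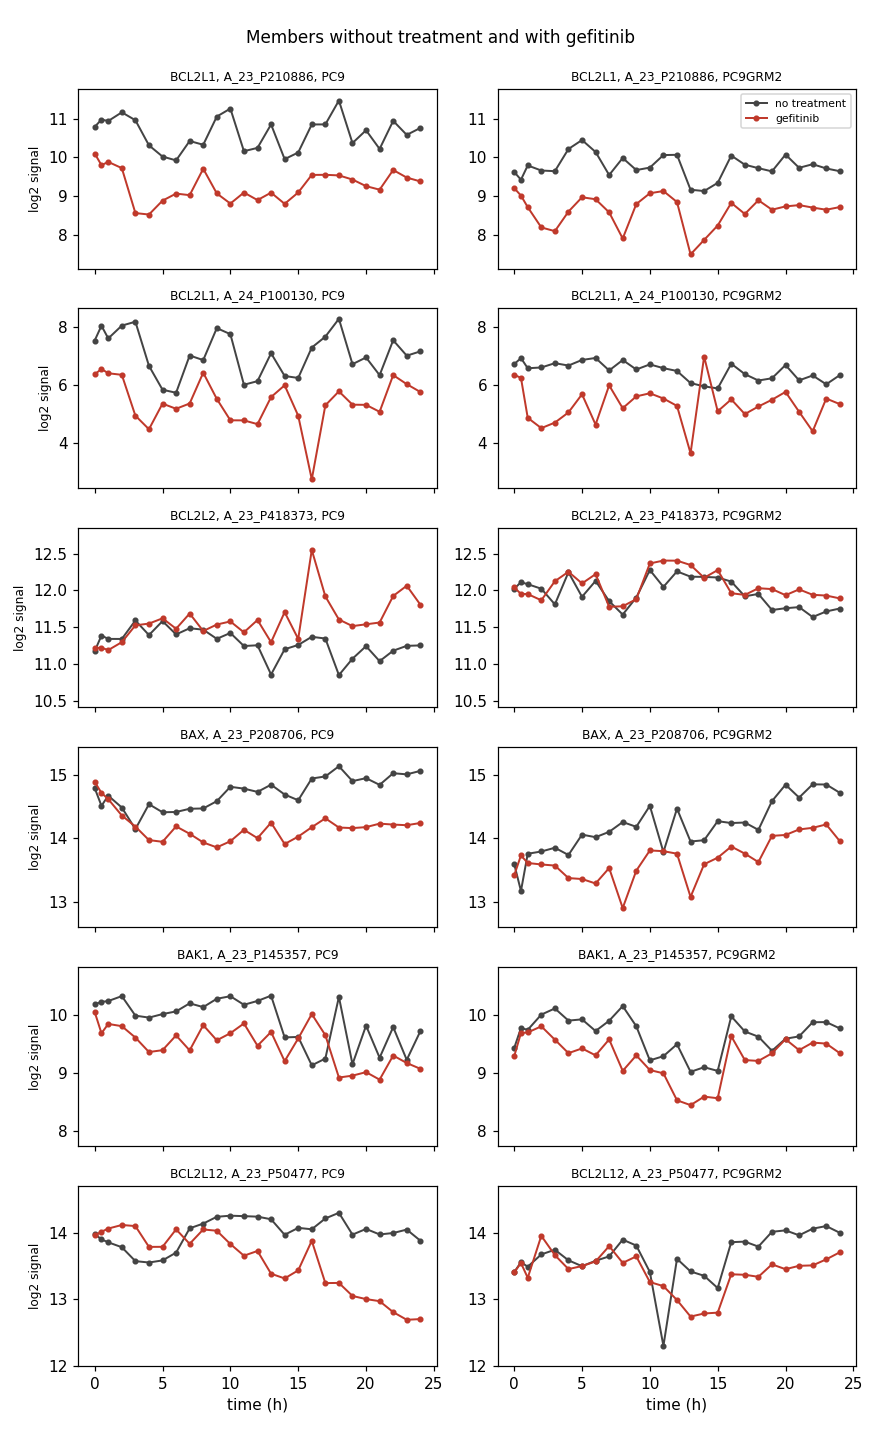
Signals (log2, quantile normalized) of BCL2L1 (both probes), BCL2L2, BAX (the probe spotted 10 times), BAK1 and BCL2L12 against time (h) without treatment (grey) and with gefitinib (red), PC9 on the left and PC9GRM2 on the right, 1 array per point. BCL2L1 lay lower with gefitinib at all time points except 1 of A_24_P100130 in PC9GRM2, while BCL2L12 in PC9 kept to the untreated level at first and ended at 12.70 against 13.88.

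BCL2L2 encodes BCL-W, a further survival protein, and rose a little with gefitinib. Its probe was named by an accession of BCL2L2. Whether it also reads the read-through gene BCL2L2-PABPN1 was not tested, so the source of the signal is uncertain. In PC9 the lowest, median and highest values were 10.85, 11.30 and 11.59 without treatment and 11.19, 11.54 and 12.55 with gefitinib. The rise of 0.30 in PC9 (standard error 0.07, adjusted p = 0.000251, higher at 21 of 26) came late, with means of 0.01 over 0 to 7 h, 0.24 over 8 to 15 h and 0.65 over 16 to 24 h. Counted by gene, on the probe that represents each, it was the only member called higher with gefitinib in PC9, where 35.1% of genes were, and in PC9GRM2, where 32.7% were. In PC9GRM2 the difference was 0.09 (adjusted p = 0.0424) and, without the 11 h time point, 0.08 with an adjusted p of 0.0507. It was 0.09 without 12 h (adjusted p = 0.0572) and without 18 h (adjusted p = 0.0507), and not called. The lines differed in this difference by -0.21 (adjusted p = 0.0246). That call was lost with time points 3 h apart (-0.16), with scan days as a block (-0.23, adjusted p = 0.0762) and with standard errors inflated for autocorrelation (adjusted p = 0.0546), and over the first 13 time points the value was 0.0015. BCL2L2 was higher in PC9GRM2 at all 26 time points without treatment, by 0.69 (standard error 0.06, adjusted p = 2.6e-11), and by 0.48 with gefitinib.

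MCL1 encodes a survival protein of very short life, and its 3 probes did not move together. They correlated with r of 0.16, 0.24 and 0.62 over the arrays, and the pair A_24_P336754 and A_24_P336759 was the most alike. The probe that represents the gene, A_24_P319635, had values of 9.38, 9.75 and 10.48 in untreated PC9 and 7.96, 9.20 and 10.42 with gefitinib, where 1 array gave no value. It was lower with gefitinib at 23 of 25 time points in PC9 (difference -0.59, standard error 0.08, adjusted p = 5.48e-08) and at 25 of 26 in PC9GRM2 (difference -0.55, standard error 0.06, adjusted p = 6.94e-09). The other probes gave 0.26 (adjusted p = 0.0232) and 0.24 (adjusted p = 0.0482) in PC9, and -0.06 and -0.13 in PC9GRM2, neither called. In PC9 the direction of the MCL1 change thus depended on the probe. It also depended on time, since A_24_P336754 had means of -0.29, 0.29 and 0.78 over 0 to 7, 8 to 15 and 16 to 24 h, and A_24_P336759 had -0.27, 0.20 and 0.78, while A_24_P319635 had -0.58, -0.72 and -0.49. All 3 were on average lower with gefitinib in the first 7 h in both lines. The difference between the lines split the same way, at -0.998 without treatment on A_24_P319635 (adjusted p = 7.27e-12, lower in PC9GRM2 at 26 of 26) and at 0.13 and 0.09 on the others, neither called. A_24_P336754 is a bright probe, saturated on 1 array, PC9 with EGF, where it is represented by its measured value.

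**Figure D3:**
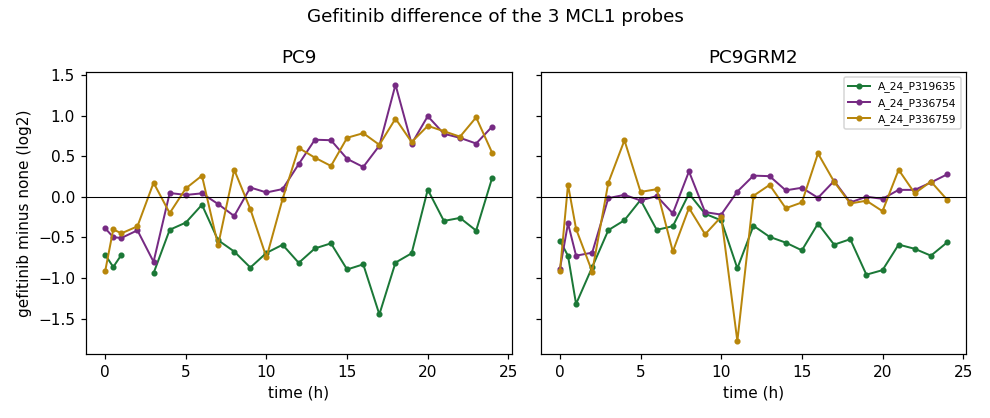
Difference in log2 signal between gefitinib and no treatment for the 3 MCL1 probes against time (h), in PC9 (left) and PC9GRM2 (right). After 12 h in PC9 A_24_P336754 and A_24_P336759 lay above 0, with a late mean of 0.78 each, while A_24_P319635 had a late mean of -0.49.

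BCL2A1 encodes BFL1, a survival protein known as a target of NF-κB. One of its probes was well above background on 10 arrays of all 8 courses and gives no level here, and because that probe had the larger variance the gene itself was not tested. The 2 probes did not vary together (r = -0.02), and whether each of them reads BCL2A1 was not tested. The source of the signal is therefore uncertain. The other probe was well above background on all arrays. That probe had 11.53, 12.58 and 13.30 in untreated PC9 and 11.51, 12.50 and 13.14 with gefitinib, and the courses overlapped fully. Its mean difference with gefitinib was -0.07 in PC9 (95% confidence interval -0.26 to 0.11) and 0.12 in PC9GRM2 (-0.01 to 0.25), and neither was called. In PC9 the means were -0.42, -0.31 and 0.48 in the 3 periods of the course, all 9 late time points were higher with gefitinib, and the change over time was called in the fit over all probes (adjusted p = 7.43e-05). It was 0.40 higher in PC9GRM2 than in PC9 with gefitinib (adjusted p = 0.000137), and the untreated difference of 0.21 was not called (adjusted p = 0.0594). In cells that received EGF, gefitinib gave -0.16 in PC9 (adjusted p = 0.0414) and 0.11 in PC9GRM2 (adjusted p = 0.0228). This probe thus moved in opposite directions there, and the difference between the lines under EGF was not tested.

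BCL2L12 encodes a BCL2-related protein known to restrain caspases. It fell late with gefitinib. In PC9 it was at 13.55, 14.02 and 14.30 without treatment and at 12.69, 13.76 and 14.12 with gefitinib, and the gefitinib values from 17 h on, at 13.25 and less, lay below every untreated value. The difference had a mean of 0.19 over 0 to 7 h, -0.49 over 8 to 15 h and -0.99 over 16 to 24 h in PC9, and of 0.00, -0.25 and -0.48 in PC9GRM2. All 9 late time points were lower in each line. The change over time was called in PC9 (fitted range 1.64, adjusted p = 1.05e-09) and in PC9GRM2 (fitted range 0.57, adjusted p = 0.0273), where the call was lost with scan days as a block (adjusted p = 0.0536). Over the whole course the BCL2L12 signal fell by 0.43 in PC9 cells (adjusted p = 0.000623, lower at 19 of 26) and had a difference of -0.24 in PC9GRM2 (adjusted p = 0.00201, lower at 22 of 26).

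BAX and BAK1, the pore-forming effectors, were not higher with gefitinib on average in either line, apart from 1 variable BAX probe in PC9. The BAX probe spotted 10 times per array had 14.15, 14.76 and 15.15 in untreated PC9 and 13.86, 14.18 and 14.90 with gefitinib, and 13.17, 14.16 and 14.86 against 12.90, 13.66 and 14.22 in PC9GRM2. It was lower with gefitinib by -0.54 in PC9 (standard error 0.06, adjusted p = 1.55e-08, lower at 23 of 26) and -0.51 in PC9GRM2 (standard error 0.07, adjusted p = 9.43e-08). In PC9 the highest gefitinib value was that of 0 h, and the difference grew from a mean of -0.17 over 0 to 7 h to -0.78 over 16 to 24 h. The further BAX probe, which had the larger variance and so represents the gene, ranged from 9.43 to 13.42 in untreated PC9 and gave differences of 0.08 (95% confidence interval -0.21 to 0.36) and -0.15 (-0.41 to 0.12), neither called. It correlated with the repeated probe with r = 0.27. On the repeated probe BAX was lower in PC9GRM2 than in PC9 by -0.55 without treatment, at 26 of 26 time points (adjusted p = 7.18e-08). BAK1 had 9.12, 10.03 and 10.32 in untreated PC9 and 8.88, 9.57 and 10.04 with gefitinib. The difference was -0.42 in PC9 (lower at 24 of 26, standard error 0.08, adjusted p = 6.08e-05) and -0.39 in PC9GRM2 (standard error 0.06, adjusted p = 4.81e-07, lower at 26 of 26), with no change over time called (adjusted p = 0.681 and 0.122).

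**Figure D4:**
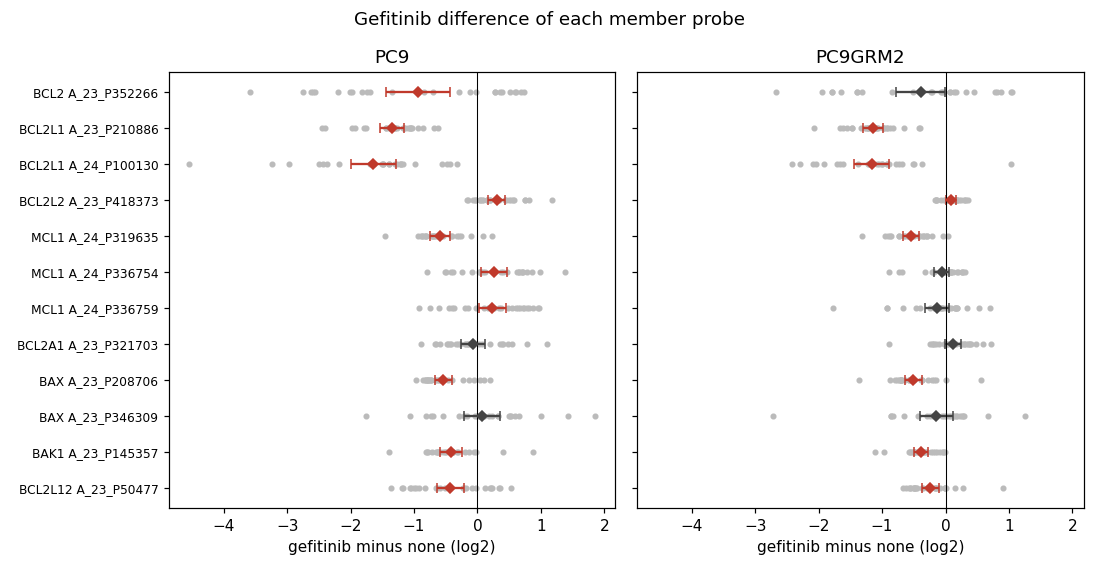
Gefitinib minus no treatment (log2) for the 12 member probes that passed the filter, in PC9 (left) and PC9GRM2 (right). Grey points are single time points, diamonds are means with 95% confidence intervals, and red marks an adjusted p below 0.05 in the fit over all probes. Both BCL2L1 probes lay furthest below 0 in each line, at -1.35 and -1.64 in PC9.

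Counted by gene, 6 of the 7 tested members were called with gefitinib in PC9, 5 lower and 1 higher, beside 72.1% of all genes, and 5 were called in PC9GRM2, 4 lower and 1 higher, beside 66.8%. BCL2L1, MCL1 on its representing probe, BAK1 and BCL2L12 were lower and BCL2L2 was higher in both. The other MCL1 probes were called higher in PC9 and were not called in PC9GRM2. The median difference of the members was -0.43 in PC9 and -0.39 in PC9GRM2, where that of all tested genes was -0.02 and -0.01. Counted by probe, 10 of 12 were called in PC9, where 68% of all probes were, and 7 of 12 in PC9GRM2, where 63.8% were. The change of the gefitinib difference over time was called for 5 of 7 members in PC9 and 3 in PC9GRM2, beside 53% and 46.2% of all genes. Change over time without treatment was called for 6 and 7 members, beside 67.1% and 67.9%. With 7 members these shares are read as counts, and nothing particular to the members is drawn from them. Neighbouring time points were not independent, since the lag-1 autocorrelation of the gefitinib differences had a median of 0.29 over all genes in PC9 and reached 0.86 among the members.

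EGF changed few members. MCL1 was higher with EGF at 23 of 26 time points in both lines, by 0.29 each (adjusted p = 6.89e-06 in PC9 and 0.00483 in PC9GRM2). BCL2 was higher by 0.19 in PC9 (adjusted p = 0.00335, 23 of 26) and was at -0.02 in PC9GRM2. These made 2 members higher in PC9, where 11.4% of genes were, and 1 in PC9GRM2, where 4.13% were. On the other MCL1 probes EGF gave 0.12 and 0.12 in PC9, neither called, and 0.12 (adjusted p = 0.032) and 0.13 (not called) in PC9GRM2. Without the 0.5 h time point, where 2 PC9GRM2 libraries went against their labels, MCL1 was 0.33 higher in PC9GRM2 (adjusted p = 0.000204). BAK1 had 0.14 in PC9 and was not called (adjusted p = 0.0751), but without 18 h it had 0.17 and was called (adjusted p = 0.0154). The calls of MCL1 and BCL2 were lost when the courses were not paired by time point. From 0.5 to 5 h MCL1 was 0.40 higher in PC9 at 6 of 6 time points (adjusted p = 0.137) and 0.39 higher in PC9GRM2 at 5 of 6 (adjusted p = 0.6), or 0.62 without 0.5 h (adjusted p = 0.111). Limma called 0 members in this early window, beside 0.166% of genes in PC9 and 0% in PC9GRM2. At an unadjusted p under 0.05 there were 2 members in PC9 and 0 in PC9GRM2, beside 1831 and 1188 of the 13263 tested genes. The methods' t-test also called 0 members in each line.

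The gefitinib difference was measured again in cells that received EGF, on arrays that the first comparison did not use. Against EGF alone, 6 of 7 members were called in each line, 5 lower and 1 higher, beside 78.9% of genes in PC9 and 74.5% in PC9GRM2. BCL2L1 had differences of -1.52 (adjusted p = 7.29e-16, lower at 26 of 26) and -1.51 (adjusted p = 2.19e-10, lower at 25 of 26). The exception in PC9GRM2 was 0.5 h (1.14), where both libraries went against their labels. MCL1 on its representing probe had 1.26 at that time point. BCL2 had -1.06 in PC9 (adjusted p = 0.000124) and -0.55 in PC9GRM2 (adjusted p = 0.0125). MCL1 on its representing probe had -0.825 and -0.76, BAK1 -0.54 and -0.40, BCL2L12 -0.33 and -0.24, and BCL2L2 0.33 and 0.16, all called. BAX on the repeated probe had -0.61 and -0.54, also called, and on the variable probe -0.01 and 0.13, neither called. Each of these had the sign seen without EGF, except for the variable BAX probe. The other MCL1 probes, which were higher with gefitinib in PC9 without EGF, did not repeat this clearly. In PC9 the mean of A_24_P336754 was 14.89 with both agents and 14.85 with EGF. That of A_24_P336759 was 11.11 with both agents and 11.18 with EGF, the opposite direction. Adding EGF to gefitinib moved 0 members in limma's test, beside 0.0226% of genes in PC9 and 3.29% in PC9GRM2. At an unadjusted p under 0.05 there were 0 members in PC9 and 2 in PC9GRM2, beside 1582 and 2535 of the 13263 tested genes. The 2 members were BCL2 at -0.18 and BAX at 0.16, and the methods' t-test called 0.

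Between the lines without treatment, 2 members were higher in PC9GRM2 (BCL2 and BCL2L2), beside 31.1% of genes. Lower were 4 (MCL1 on its representing probe, BCL2L1, BCL2L12 and BAK1), beside 37.1%. BCL2L12 differed by -0.35 (adjusted p = 0.000829). BAK1 differed by -0.25 (adjusted p = 0.0315), and without the 11 h time point by -0.22 with an adjusted p of 0.0517. Without 12 h or 18 h it was -0.23 (adjusted p = 0.0525 and 0.0501), and without 18 h BAK1 was called with gefitinib (-0.24) and with both agents (-0.24). With gefitinib 4 members were called (65% of genes), with EGF 7 (70%) and with both agents 4 (67.9%). BCL2 and BCL2L2 were higher, and MCL1 on its representing probe lower, under all 4 treatments. With EGF, BAX on its representing probe was called at -0.60 (adjusted p = 0.0487), and the call was lost without any 1 of the 11, 12, 14, 16 and 18 h time points (adjusted p of 0.0898, 0.0853, 0.0953, 0.0572 and 0.0665). With gefitinib BAX had -0.77 (adjusted p = 0.0264), or -0.66 without 12 h and -0.67 without 14 h (adjusted p = 0.0508 each).

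**Figure D5:**
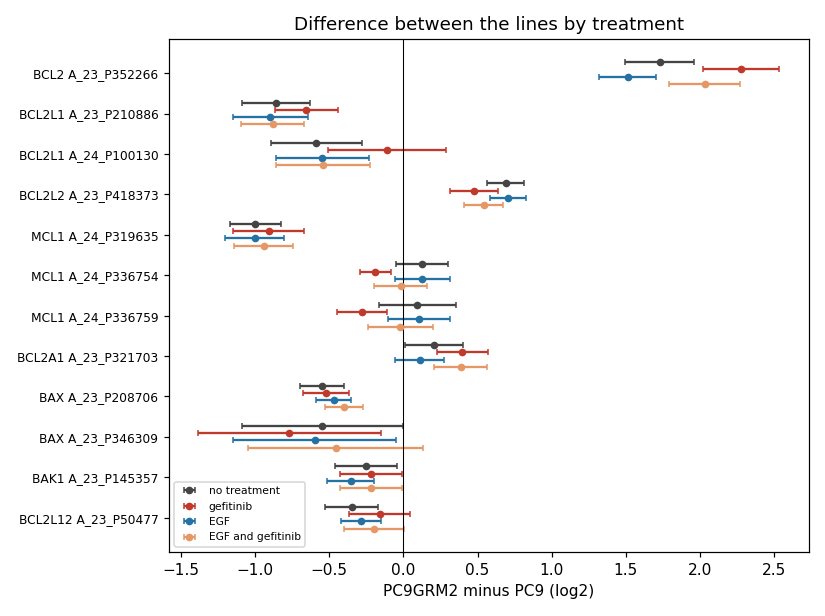
PC9GRM2 minus PC9 (log2) for the 12 member probes, as means over 26 matched time points with 95% confidence intervals, 1 colour per treatment. BCL2 stood apart at 1.51 to 2.28, the repeated BAX probe lay below 0 under every treatment, and the MCL1 probes were split, with -0.998 and 0.13 among the differences without treatment.

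Genes that act with the members were followed by list. Of all tested genes, 35.1% were called higher and 37% lower with gefitinib in PC9, and 32.7% and 34.1% in PC9GRM2. The lists are short, so their counts are read beside these shares and nothing particular to a list is drawn from them. Of the 8 BH3-only genes, whose products bind and neutralize survival proteins, 4 were higher and 2 lower with gefitinib in PC9 and 5 and 2 in PC9GRM2. BMF rose by 3.77 and 4.17 at all 26 time points of each line, HRK by 1.12 and 1.496, and BAD by 1.04 in PC9. BIK had a difference of -0.77 in PC9GRM2. Both BMF and HRK moved opposite to BCL2L1 in each line. Of the 10 apoptosome and caspase genes, 4 were higher and 3 lower in PC9 and 4 and 4 in PC9GRM2. CYCS, which encodes cytochrome c, had -1.03 and -0.95, and APAF1, the scaffold of the apoptosome, had 0.57 and 0.75. Of the 6 IAP genes, caspase inhibitors and their relatives, 2 were higher and 4 lower in PC9 and 1 and 3 in PC9GRM2, with BIRC3 at -1.35 and -1.87 and BIRC7 at 1.89 and 0.72. The VDAC genes, pore proteins of the same membrane, had 1 higher and 2 lower in each line, VDAC3 at -0.73 and -0.64. Of the other family genes, 3 of 5 were tested, and BCL2L14 had 1.65 and 1.21. Of 4 genes of MCL1 turnover, 2 were higher in each line and 1 was lower in PC9GRM2, and USP9X, a deubiquitinase of MCL1, had 0.88 and 0.73. The list medians ranged from -0.56 (VDAC genes) to 0.39 (MCL1 turnover genes) in PC9, beside -0.02 for all tested genes.

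Lists of the pathways upstream were read in the same way, beside the same shares of all genes. All 9 ERK-induced genes were lower with gefitinib in PC9 (median -3.78) and 8 of 9 in PC9GRM2 (median -1.31), with DUSP6 at -6.80 and -2.17. Of 6 NF-κB targets 5 were tested, and 5 were lower in PC9 and 3 in PC9GRM2, with TNFAIP3 at -1.83 and -1.57. Of 8 p53 targets, 2 were higher and 4 lower in PC9 and 3 and 4 in PC9GRM2, with TP53INP1 at 2.78 and 1.59 and CDKN1A at -1.25 and -0.89. The gefitinib difference was higher, that is less negative, in PC9GRM2 for 8 of the 9 ERK-induced genes and for 1 of the 7 tested members, BCL2, beside 17.2% of all genes. The BCL2 call was lost with normexp correction and with scan days as a block, as given above.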

How the data were processed

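The authors deposited, per array, Agilent scanner intensity values that their scanner software (Feature Extraction 10.5.1.1, per the file headers) had corrected for local background, without normalization between arrays, and a table of the same intensities that they had quantile normalized. Here the non-control spots were quantile normalized over all arrays, set to at least 1 and converted to log2. Outlier spots, 0.301% of those of the tested genes, were left out and repeated spots averaged. Accessions named 24794 of the 41000 probes. The probe with the largest variance stood for a gene, and genes well above background on at least 13 of 26 arrays of a course were tested (13263 of 16961). Differences at matched time points were tested with limma 3.58.1 in R 4.3.3 (moderated test, with the variance trend over the mean level), and time courses with its F-test on a natural spline of time (4 degrees of freedom), both with Benjamini-Hochberg adjustment. A fit over all 29927 filtered probes, chosen after seeing the data, gave the values of single probes. Courses were paired by time point, as in the authors' methods. Paired arrays of 1 line shared a slide, while those of different lines did not. The number of arrays limits the precision. Members, lists and the genes named from them (at most the 3 called genes with the largest gefitinib difference per list and line) were chosen with earlier results of these data known. The fits were tested on simulated data with independent time points, which does not cover the autocorrelation of the real courses. The alternatives are given in the closing section.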

Additional observations from a re-analysis of the deposited data

Results flagged for a closer look

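The tested difference between the lines in the effect of gefitinib (PC9GRM2 minus PC9, limma, Benjamini-Hochberg adjustment, n = 26 time points) picked out 4 member probes. BCL2 had a difference of 0.55 (adjusted p = 0.00485), from -0.94 in PC9 and -0.39 in PC9GRM2, and was higher at 21 of 26 time points. The BCL2 value was -0.00068 with normexp correction, and the call was lost in 5 more of 23 alternatives. BCL2L2 had -0.21 (adjusted p = 0.0246), from 0.30 and 0.09, and was lower at 18 of 26. For MCL1, A_24_P336754 had -0.32 (adjusted p = 0.00483, lower at 23 of 26), from 0.26 and -0.06. A_24_P336759 had -0.37 (adjusted p = 0.00707, lower at 22 of 26), from 0.24 and -0.13. The MCL1 probe that represents the gene had 0.06 and was not called (adjusted p = 0.693).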

How the results depend on the processing

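Of the members' values under all alternatives, 2149 kept their side of the threshold, 146 lost the call and 49 gained one. Direction, followed in called values only, changed in 19. Of the counts of called members, 313 stayed within 1.5 times and 36 did not. No cause was tested. With normexp correction the difference of BCL2 between the lines in the gefitinib effect was -0.00068, and 1 member was called for EGF and gefitinib against gefitinib in PC9GRM2. The choice of probe turned MCL1. With the highest-mean probe, which is A_24_P336754, it had 0.26 with gefitinib in PC9, 0.0413 with both agents against EGF in PC9, and 0.13 between the lines both without treatment and with EGF. A_24_P336759 gave 0.24, and 0.0936 and 0.106 between the lines, and the mean of all probes gave 0.0073 with gefitinib in PC9. With the highest-mean probe 1 member was called with EGF in PC9 and 5 for the change of the gefitinib difference over time in PC9GRM2, and with the mean of all probes 4 members differed in the gefitinib effect. Over the first 13 time points BCL2L12 had 0.0307 and 0.0206 with gefitinib in PC9 and PC9GRM2 and 0.0752 with both agents against EGF in PC9, the BCL2L2 difference in effect was 0.0015 and BAX with EGF was 0.20 higher in PC9GRM2. Over the last 13, BCL2 had 0.22 with both agents against EGF in PC9GRM2.

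Time points 3 h apart left 3 members called with gefitinib in PC9, 0 in the gefitinib effect, 0 with EGF in each line, and 3 between the lines without treatment and 3 with EGF. The gefitinib effect was called for 1 member with standard errors inflated for autocorrelation, for 0 with scan day as a random block and for 0 over the first 13 time points. Scan day as a block also gave 1 member for EGF and gefitinib against gefitinib in PC9GRM2 and, for splines in that line, 1 for the gefitinib difference and 2 without treatment. Without pairing by time point 1 member was called in the gefitinib effect and 0 with EGF in each line. EGF called 0 in PC9GRM2 over the first 13 time points and 1 in PC9 over the last 13. A required difference of at least 1 left 1 member with gefitinib in each line, 0 in the effect, 0 with EGF, 2 and 1 with both agents against EGF, and 1, 1, 2 and 1 between the lines. The one-sided test for higher in PC9GRM2 called 2 under each treatment.

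Over all genes the gefitinib effect went from 4551 calls to 1259 with time points 3 h apart, 2045 with scan days as a block, 1130 over the first 13 time points and 470 at a difference of at least 1. EGF in PC9 and PC9GRM2 went from 3417 and 1224 to 799 and 139 at 3 h, 393 and 86 unpaired, 2016 and 84 over the first 13, 2108 and 1893 over the last 13, and 21 and 4 at a difference of 1. Gefitinib went from 9561 and 8859 to 2472 and 1291 at a difference of 1, and in PC9GRM2 to 5501 over the first 13. EGF and gefitinib against EGF went from 10460 and 9877 to 2860 and 1819 at a difference of 1. Against gefitinib the 3 and 437 calls became 0 and 168 at 3 h, 0 and 0 unpaired and over the first 13, 0 and 0 at a difference of 1, and 0 and 1019 without the 0.5 h time point. The 3 also became 0 with autocorrelation, with scan days as a block and without 12 or 14 h, 7 with the 75th percentile, 9 by the methods' t-test and 15 without 16 h. The 22 early EGF calls in PC9 became 37 with the highest-mean probe, 4 without the filter, 8 with a floor of 16, 3 unpaired, 6 at a difference of 1 and 0 by the methods' t-test, and the 0 in PC9GRM2 became 4 without 0.5 h. The lines without treatment went from 9048 to 2228 at a difference of 1 and 4082 one-sided, with gefitinib from 8627 to 2192, 4055 and, with autocorrelation, 5572, with EGF from 9278 to 2139, 4333 and, at 3 h, 5884, and with both agents from 8999 to 2082, 4148, 5820 at 3 h and 5468 with autocorrelation. Untreated splines in PC9GRM2 went from 9011 to 5253 with scan days as a block.

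The replicates here are time points of single cultures. No paired analysis was possible because the replicate numbers are time points and mark no shared animal, donor or culture, beyond the pairing by time point already used. Leaving out 0.5, 11, 12, 14, 16 or 18 h, each probe as a feature, and scan day in the splines were chosen after seeing the data. BCL2 in PC9 lay near background, which limits how its lower values can be read.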

Other observations

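Genes whose signals followed a member most closely over all arrays are named by Pearson's r, as a description only, since the arrays share line, treatment and slide. BCL2 was followed by GCFC2 (r = 0.909), AKAP1 (0.898) and DTD2 (0.890). BCL2L1 was followed by ARHGDIA (0.859), FSCN1 (0.830) and TOMM40 (0.828), which encodes an import protein of the outer mitochondrial membrane. BCL2L2 was followed by ACTR10 (0.896), STEAP3 (0.894) and XPA (0.888). The probe representing MCL1 was followed by SPIN1 (0.883), M6PR (0.848) and MAFF (0.846). For BAK1 the closest was PRELID1 (0.884) and for BCL2L12 PHF19 (0.829). The variable BAX probe was followed by CDH24 (0.939), PARD6G (0.939) and ZNF575 (0.937), more closely than by the repeated probe of BAX itself (0.27).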
